A study of Mus musculus with 18 samples.

Results

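Naive CD4+ T cells that had spent 8 h in culture medium without a stimulus were compared with cells taken directly from the spleen, both from control mice. The comparison used 6 of the 18 RNA sequencing libraries of the study, 3 of freshly isolated cells and 3 of cultured cells. Of 15137 genes with a deposited value, 10877 (71.9%) were tested because their value was at or above log2 of 10 in no fewer than 3 libraries of the 18, and the other 4260 were not. All mice had the C57BL/6J background, and the sources used here do not give their age. The cells were sorted by flow cytometry as CD3+ CD4+ CD25- CD62L+ CD44- spleen cells, and the sort came before the culture. The medium was IMDM with 10% fetal calf serum, antibiotics, glutamine, HEPES, pyruvate and 55 µM β-mercaptoethanol, and no cytokine is named among its supplements. The remaining libraries are control cells cultured for 8 h with antibodies to CD3 and CD28 (1 µg/ml), and the same 3 conditions of Creld1 cKO cells, in which Creld1 is deleted by Cre driven by CD4 sequences. That Cre acts in all T cells that pass through a CD4+ stage. The control mice are labelled only as control, and the sources used here do not say whether they carried Cre or a floxed allele.

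The 3 libraries of a group carry a single mouse label, and the fresh and the cultured group carry different ones. A difference due to culture can therefore not be told apart from one between these mouse labels. No label states that the 3 libraries came from separate animals, so a p-value here compares a difference with the spread between libraries, and that spread may be technical. A value is the deposited normalized expression on a log2 scale, and a difference is the mean of the cultured minus the mean of the fresh libraries, so 1 unit is a 2-fold change. Sequencing depth is unknown, because only normalized values were used. The linear values summed to between 6782465 and 7419367 per library. A gene is called higher or lower where limma's moderated test, adjusted by the Benjamini-Hochberg method over all 10877 genes, gave an adjusted p under 0.05. Errors of differences are standard errors (SE) with n = 3 libraries per group.

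A naive T cell in the body is kept alive in a resting state by interleukin 7, by weak contacts of its receptor with self peptides, and by repeated passage through lymphoid organs. It transcribes little, stays small and depends on Foxo and Klf transcription factors for its homing receptors and quiescence genes. Isolation takes the cell out of this setting, and immediate early genes such as Fos and Jun are known to be induced within minutes by tissue dissociation and handling. In culture without cytokine, contact or stimulus, naive T cells slowly lose mass, use autophagy to recycle their contents and in time die.

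The sorted cells carried the transcripts of naive CD4+ T cells in both states. Cd4 lay at 12.70, 12.81 and 12.68 in the fresh libraries and 12.45, 12.62 and 12.60 after culture. The T cell receptor component genes Cd3d and Cd3g did not pass the test, at differences of -0.01 and -0.20, and Cd3e was higher by 0.23, a call kept in 1 of the 6 fits that left out 1 of the compared libraries (adjusted p up to 0.2). Ccr7, the lymph node homing receptor, had means of 12.08 ± 0.11 fresh and 12.21 ± 0.16 cultured (SD, n = 3 each). Most defining markers of other cells were below the minimum for testing, 13 of 18 for B cells, 13 of 18 for CD8 T and natural killer cells and 10 of 16 for myeloid and dendritic cells. The CD8 gene Cd8a had mean values of 1.65 fresh and 1.69 cultured, and the myeloid gene Lyz2 2.88 and 2.78. Others were well above it, such as Ctss at 9.93 and 10.07 and Prf1 at 7.10 and 6.20. Creld1 itself (chromosome 6, 113483297 to 113493343, plus strand, GRCm38) lay at 4.33, 4.85 and 4.57 in the fresh libraries and 4.81, 4.88 and 5.40 after culture, a difference of 0.45 ± 0.23 that did not pass (limma adjusted p = 0.159). In the Creld1 cKO libraries it lay at 4.19, 3.70 and 4.40 fresh and 3.95, 4.33 and 3.82 after culture, below all control libraries in culture and with an overlap in fresh cells, and the deposited gene value does not show which exons were read.

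The libraries differed in composition. The GC slope is how far a library's log2 values, relative to each gene's mean over all 18 libraries, shift as transcript GC content rises by 1 SD. It ran from -0.16 to 0.08 in the fresh and from 0.06 to 0.24 in the cultured libraries (two-sided exact permutation p = 0.20). Control fresh replicate 1 stood apart, with a GC slope of -0.16 and 5.03% of its linear sum in mitochondrially encoded genes, against 3.63% and 3.66% in the other fresh libraries. The genes were therefore refitted with the slope as a covariate and without that library. Of the 222 called genes named here, 207 kept the call and 222 the direction without the library, and 221 kept the call with the covariate.

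Between cells cultured for 8 h without a stimulus and fresh cells, 3151 of 10877 genes (29%) differed in level. Of these 1619 (14.9%) were higher and 1532 (14.1%) lower, and the median difference over all tested genes was 0.04. Differences of at least 2-fold were fewer, 167 genes higher (1.54%) and 129 lower (1.19%). A lower value in these bulk libraries can mean fewer cells with the transcript or less of it per cell, and these cannot be told apart. Without control fresh replicate 1 the counts were 1093 higher (10%) and 1010 lower (9.29%). With the GC slope as a covariate they were 2392 and 2275, of which 1559 and 1486 had the same call without it.

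Among all tested genes the 3 largest falls were those of the immediate early genes Jun, Fos and Fosb. Jun (chromosome 4, 95049034 to 95052222, minus strand) and Fos (chromosome 12, 85473890 to 85477273, plus strand), which encode partners in the AP-1 transcription factor, were far lower after the 8 h. Jun lay at 10.09, 10.58 and 10.52 in the fresh libraries and 6.96, 7.31 and 7.47 after culture, an 8.87-fold drop (difference -3.15 ± 0.24; limma adjusted p = 2.34e-07). Fos lay at 10.91, 11.12 and 11.24 in the fresh libraries and 7.69, 8.04 and 8.28 after culture, 8.52-fold lower (-3.09 ± 0.18; adjusted p = 2.08e-08). In both genes the lowest fresh library was more than 2 log2 units above the highest cultured one. Their relative Fosb had values of 9.58, 9.89 and 10.51 in the fresh libraries and 6.53, 7.02 and 7.18 after culture (-3.08 ± 0.23), Jund differed by -1.53 and Fosl2 by -0.93. Junb, at 8.55, 9.54 and 9.75 in the fresh libraries and 7.08, 7.93 and 8.67 after culture, spread widely and did not pass (difference -1.38, adjusted p = 0.124; -2.36 with the GC slope as a covariate, adjusted p = 9.42e-08).

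Of the 35 tested immediate early and dissociation genes 22 were lower and 1 was higher (65.7% called, against 29% of all genes). The median difference was -0.93. The feedback regulators of the list fell with the AP-1 genes. Dusp1, a phosphatase that switches off MAP kinases, lay at 10.35, 10.60 and 10.74 in the fresh libraries and 8.07, 8.25 and 8.41 after culture (5-fold lower, -2.32 ± 0.13; adjusted p = 1.76e-08), and its relative Dusp5 differed by -1.85. Ppp1r15a, which directs a phosphatase to the translation factor eIF2α and so restores protein synthesis after stress, lay at 11.21, 11.76 and 11.70 in the fresh libraries and 9.13, 9.27 and 9.41 after culture (-2.29 ± 0.26). Sik1, a salt-inducible kinase, differed by -2.41. Rgs1 and Rgs2, which dampen signalling by G protein-coupled receptors, differed by -2.04 and -1.59. The only member that rose was Atf3, a stress-induced transcription factor, at 3.42, 3.69 and 3.99 in the fresh libraries and 4.33, 4.52 and 4.65 after culture (0.80 ± 0.18; adjusted p = 0.00335; 0.59 with the GC slope). The factor genes of the T cell receptor response did not move as one. Egr1 differed by -0.82 and Nr4a2 by -0.93, while Egr2 and Nr4a3, at 0.30 and 0.06, did not pass. The AP-1 site TGACTCA, looked for on both strands from 250 bases before to 50 after the start site, was in 1 of 27 windows of the list (3.7%), near its share of the windows of all 8600 tested genes that have one (4.1%).

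**Figure D1:**
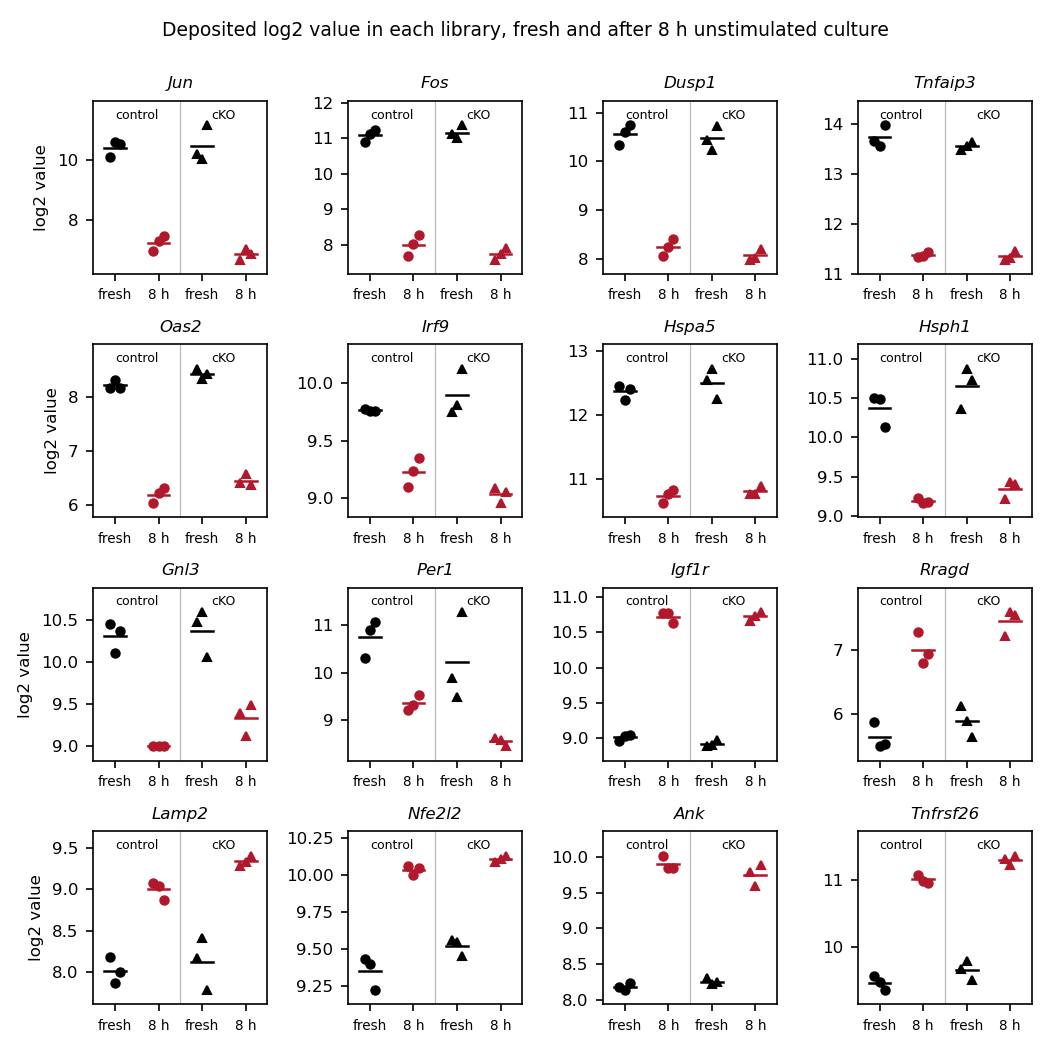
Deposited log2 value of 16 genes in each library, with control cells as circles and Creld1 cKO cells as triangles, fresh in black and after 8 h of unstimulated culture in red, and bars at the group means; vertical scales differ between panels. In each of the 16 panels the 3 cultured control libraries lie wholly below (Jun to Per1) or wholly above (Igf1r to Tnfrsf26) the 3 fresh ones. Among all 10877 tested genes they lie wholly below in 2490 and wholly above in 2801.

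Several surface molecules linked to T cell activation were lower, and others, such as Tnfrsf4 below, were higher. Cd69, an early activation antigen that holds lymphocytes in tissue by blocking the egress receptor S1pr1, lay at 11.48, 11.16 and 11.41 in the fresh libraries and 9.28, 9.43 and 9.52 after culture (3.85-fold lower; -1.94 ± 0.12; adjusted p = 2.17e-08). S1pr1 rose by 0.25 (adjusted p = 0.012, and up to 0.0544 when 1 library was left out), from 12.57 ± 0.09 to 12.82 ± 0.02 (SD). All cells had been sorted as CD44-, and the Cd44 transcript lay at 8.62, 8.31 and 8.25 in the fresh libraries and 7.33, 6.95 and 6.83 after culture (-1.35 ± 0.18). Ctla4, an inhibitory receptor, differed by -1.24, the adhesion and co-stimulatory receptor gene Cd226 by -1.32 and the helper ligand gene Cd40lg by -0.91. For each of these lower genes the 3 cultured libraries were all below the 3 fresh ones, as in 2490 of all 10877 tested genes.

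Klf4, a Kruppel-like factor that restrains the division of resting lymphocytes, lay at 7.40, 6.995 and 7.63 in the fresh libraries and 4.91, 4.62 and 4.94 after culture, 5.74-fold lower (-2.52 ± 0.16; adjusted p = 2.7e-08). Of 11 tested Kruppel-like factor genes 4 were lower and 0 higher (36.4% called, against 29% of all genes). The other lower ones were Klf6 at -1.42, Klf9 at -0.98 and Klf11 at -0.68. Klf2, the member that drives S1pr1, did not pass, at 0.08 (-0.15 with the GC slope as a covariate, adjusted p = 0.247). Tnfaip3, which encodes the NF-kB brake A20 and was high in fresh cells, lay at 13.67, 13.57 and 13.97 in the fresh libraries and 11.33, 11.36 and 11.43 after culture (5.15-fold lower; -2.37 ± 0.09; adjusted p = 3.55e-10). Its spread within groups was small beside its fall.

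Among 32 NF-kB genes and inhibitors 6 were higher and 5 lower, close to the share of all genes. Nfkbiz, a nuclear member of the IκB family, differed by -1.396 and fell with Tnfaip3. Nfkb2 and Relb, the pair of the non-canonical arm, went the other way at 1.28 and 1.25. Both are GC-rich transcripts (59.4% and 56.8% GC against a median of 49.2% over tested genes), and the covariate left 0.82 and 0.86 (adjusted p = 3.92e-07 and 3.92e-06). In Creld1 cKO cells they differed by 0.75 and 0.47 and did not pass.

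Interferon-stimulated genes fell in large number. Type I interferon, acting through a complex that holds Stat2 and Irf9, keeps these antiviral genes at a low tonic level in resting lymphocytes. Of 58 tested members 36 were lower, 3 higher and 19 not called (67.2% called, against 29% of all genes). The median difference was -0.57. Oas2, which makes the messenger that activates RNase L, lay at 8.17, 8.32 and 8.17 in the fresh libraries and 6.04, 6.23 and 6.32 after culture (chromosome 5, 120730333 to 120749853, minus strand; 4.06-fold lower; -2.02 ± 0.10; adjusted p = 6.21e-09). Its neighbour Oas3 differed by -1.25. The GTPase genes Gbp6 and Iigp1 differed by -1.49 and -1.07, Mx1 by -1.46 and Rtp4 by -1.45. For each of these 6 genes the groups did not overlap. Over all 10877 tested genes the cultured libraries lay wholly below the fresh ones in 2490.

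The list's own factors Irf9, Irf7 and Irf1 were lower. Irf9 lay at 9.77, 9.76 and 9.76 in the fresh libraries and 9.10, 9.24 and 9.35 after culture (-0.53 ± 0.11; adjusted p = 0.00204). Irf7 differed by -0.65 and Irf1 by -0.65, while Stat2 did not pass at -0.05. Irf4, which is not on this list, was higher by 0.63, a call kept in 1 of the 6 fits that left out 1 library. The RNA sensor genes Ddx58 and Ifih1 differed by -0.84 and -0.85, and the interferon-induced brake Usp18 by -0.88. Members that rose were Irgm2 (0.41), Trim25 (0.23) and Ly6e (0.38; 0.30 without control fresh replicate 1, adjusted p = 0.0722). The antigen processing genes Psmb8, Psmb9 and Tap1, at -0.03, -0.09 and 0.26, did not pass. Some members have near-identical relatives (Ifit3 and Ifit3b, the Gbp and Oas families), whose reads the counting could have split, so their single values are uncertain.

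Promoter sequence was set beside these values. The interferon-stimulated response element holds the letters GAAANNGAA, and these were looked for on both strands in windows of 300 bases (250 before to 50 after the start site; RefSeq, GRCm38.p6). Of 42 members with a window 24 held them (57.1%), against 758 of the 8600 tested genes with a window (8.81%). Among members called lower 15 of 23 held the letters, among those called higher 2 of 2, and among those not called 7 of 17. A match describes the letters only, and a window without one says nothing of the factor. The stretches below are shown because they come from 3 members that fell, with the matches in capitals, 5′ to 3′ on the gene's strand, and were chosen after the values were seen.
Oas3 (chr5:120777708-120777746, minus strand): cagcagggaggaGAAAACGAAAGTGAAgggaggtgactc
Isg15 (chr4:156200864-156200908, minus strand): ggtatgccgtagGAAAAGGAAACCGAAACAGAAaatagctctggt
Ifit1 (chr19:34640768-34640825, plus strand): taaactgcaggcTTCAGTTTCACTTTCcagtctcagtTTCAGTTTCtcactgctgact
In Oas3 and Isg15 the repeats overlap in 1 run, and in Ifit1 they lie on the other strand. Isg15, a ubiquitin-like protein, lay at 5.08, 5.54 and 5.79 in the fresh libraries and 4.48, 4.56 and 4.85 after culture (-0.84 ± 0.26; adjusted p = 0.0257), and Ifit1, a sensor of foreign RNA caps, at 7.05, 6.76 and 6.33 in the fresh libraries and 5.75, 5.55 and 5.89 after culture (-0.99 ± 0.18; adjusted p = 0.000824). The call for Isg15 was kept in 2 of 6 fits that left out 1 library, with an adjusted p of up to 0.102, and that for Ifit1 in 6.

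Protein folding genes fell in the cytosol and in the endoplasmic reticulum. Of 34 tested cytosolic and mitochondrial chaperone genes 21 were lower and 0 higher (61.8% called, against 29% of all genes). The median was -0.40. Hsph1, an exchange factor of the Hsp70 system, lay at 10.50, 10.48 and 10.13 in the fresh libraries and 9.23, 9.16 and 9.18 after culture (2.27-fold lower; -1.18 ± 0.12; adjusted p = 5.36e-06). The Hsp70 gene Hspa8 differed by -1.07, the inducible Hsp90 gene Hsp90aa1 by -0.999 and the Hsp40 genes Dnajb4 and Dnaja1 by -1.47 and -0.99. Of the mitochondrial pair, Hspd1 and its lid Hspe1, the differences were -0.67 and -0.56. The subunit genes of the ring chaperonin TRiC were lower in smaller measure, with Cct2 at -0.41 and Cct3 at -0.45. Without control fresh replicate 1, 16 members were lower and 0 higher.

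Heat shock factor binds inverted repeats that hold GAANNTTC. Of 27 chaperone genes with a window 11 held these letters (40.7%), against 612 of 8600 (7.12%). Among the members called lower 7 of 16 held them, and among those not called 4 of 11. The stretches from 3 members that fell, also chosen after the values were seen, show the match in capitals.
Hsph1 (chr5:149636276-149636307, minus strand): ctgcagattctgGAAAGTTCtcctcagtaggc
Dnaja1 (chr4:40722332-40722363, plus strand): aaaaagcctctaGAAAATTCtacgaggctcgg
Chordc1 (chr9:18292251-18292292, plus strand): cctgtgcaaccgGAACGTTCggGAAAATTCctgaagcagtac
Chordc1, a partner of Hsp90 with 2 matches, differed by -0.53. Hsph1 and Dnaja1 have more than 1 listed start site, and the window shown is the one with a match.

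In the endoplasmic reticulum 13 of 28 folding genes were lower and 0 higher (46.4% called, against 29% of all genes), with a median of -0.27. Hspa5, the Hsp70 of this compartment also called BiP, lay at 12.46, 12.23 and 12.41 in the fresh libraries and 10.63, 10.78 and 10.83 after culture (chromosome 2, 34771970 to 34777547, plus strand; 3.07-fold lower; -1.62 ± 0.11; adjusted p = 6.02e-08). Its partner Dnajb9 lay at 10.32, 9.88 and 9.92 in the fresh libraries and 7.79, 7.87 and 7.95 after culture (4.5-fold lower; -2.17 ± 0.18). These 2 stood well below the rest of the list. Xbp1, a transcription factor of the unfolded protein response, differed by -0.69, Calr by -0.51 and Selenok by -0.76. Without control fresh replicate 1, 8 members were lower, a count over 1.5 times smaller.

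The integrated stress response gave a mixed picture. Atf4, its central transcription factor, lay at 10.75, 10.92 and 10.97 in the fresh libraries and 9.91, 9.98 and 10.03 after culture (-0.91 ± 0.09, limma adjusted p = 3.42e-06). Of 35 tested genes of this list 11 were lower and 4 higher (42.9% called, against 29% of all genes), with a median of -0.17. Among those lower were Psat1 (-0.83) and Mthfd2 (-0.67) of serine and one-carbon metabolism and the amino acid carriers Slc38a2 (-0.72) and Slc3a2 (-0.56). Trib3, a pseudokinase that limits this response, was among the genes that rose most. It lay at 4.95, 5.43 and 5.28 in the fresh libraries and 6.61, 7.04 and 7.30 after culture (3.4-fold higher; 1.77 ± 0.21; adjusted p = 2.34e-05). In Creld1 cKO cells it rose by 0.81 (adjusted p = 0.0117), and the test of the difference between the genotypes did not pass (-0.96 ± 0.30, adjusted p = 0.843). Eif4ebp1, an inhibitor of translation initiation, rose by 0.76 and Cebpg by 0.38. The letters TGATGNAA of the Atf4 composite site were in 8 of 28 windows of the list (28.6%), against 2.81% of all windows. By call they were in 1 of 10 windows of lower members, 2 of 3 of higher ones and 5 of 15 of those not called.

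Genes for making ribosomes fell. Of 55 ribosome biogenesis genes 23 were lower and 1 higher (43.6% called, against 29% of all genes), with a median of -0.31. Gnl3, a nucleolar GTPase also called nucleostemin, lay at 10.45, 10.11 and 10.36 in the fresh libraries and 8.99, 8.99 and 8.99 after culture (2.49-fold lower; -1.31 ± 0.13; adjusted p = 3.38e-06). Nop56 and Nop58, core proteins of the particles that methylate ribosomal RNA, differed by -0.73 and -0.74 and the helicase gene Ddx21 by -0.72. The member that rose was Polr1a, the largest subunit of RNA polymerase I, at 0.35 (adjusted p = 0.0905 without control fresh replicate 1). Nucleolin (Ncl) and nucleophosmin (Npm1), at -0.26 and -0.33, did not pass.

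Ribosomal protein genes themselves had a small median difference, and all those called were lower. Of 78, 18 were lower and 0 higher (23.1%, against 14.1% lower and 14.9% higher of all genes). The median was -0.07 (-0.18 with the GC slope as a covariate, when 37 were lower). Without control fresh replicate 1 it was -0.18, with 13 lower. In Creld1 cKO cells 19 were lower and 0 higher, with a median of -0.27. Rps12 stood out at 10.06, 9.60 and 9.62 in the fresh libraries and 8.43, 8.61 and 8.75 after culture (-1.17 ± 0.23), and Rpl5, part of the complex that restrains Mdm2, differed by -0.57. Rplp1, a GC-rich member, had a difference of 0.96 that did not pass and became 0.17 with the covariate (adjusted p = 0.249). Processed copies of these genes are many in the genome, so how reads were shared with them is uncertain.

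Mitochondrial transcripts took a smaller mean share of the cultured control libraries. Mitochondrially encoded genes made up 3.27% ± 0.33 of the linear sum after culture and 4.11% ± 0.80 in fresh cells (SD, n = 3 each). The groups did not overlap (two-sided exact permutation p = 0.10, the smallest that 3 against 3 can give). They nearly touched, with a highest cultured value of 3.62% and a lowest fresh value of 3.63%. Control fresh replicate 1, at 5.03%, raised the fresh mean. In Creld1 cKO cells the means were 4.19% cultured and 4.65% fresh, with overlap between groups (two-sided exact permutation p = 0.60). Of the 13 genes mt-Nd1 (-0.53) and mt-Nd2 (-0.63) were lower in control cells, and without control fresh replicate 1 the test called 0 lower (median -0.24 against -0.40). With the covariate the median was -0.11. Of 75 nuclear genes of oxidative phosphorylation 11 were lower (14.7%, against 14.1% of all genes) and 0 higher (against 14.9%), with a median of -0.10. With the covariate 19 were lower and 2 higher. In Creld1 cKO cells 19 were lower and 0 higher (median -0.24). Cox7a2, a subunit of the last enzyme of the chain, differed by -0.42, and Uqcrb, of the third complex, by -0.49 (adjusted p up to 0.069 when 1 library was left out).

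Genes that respond to glucocorticoids were lower as well. These adrenal hormones circulate in the animal and act on T cells through Nr3c1, and the sources used here do not say whether the medium held any. Of 21 tested members 11 were lower and 3 higher (66.7% called, against 29% of all genes), with a median of -0.62. Dusp1 and Rgs2 also stand on the immediate early list. Tsc22d3, which encodes the glucocorticoid-induced leucine zipper protein, lay at 11.69, 11.80 and 11.89 in the fresh libraries and 10.74, 10.77 and 10.82 after culture (-1.01 ± 0.10; adjusted p = 3.66e-06). Fkbp5, a chaperone of the receptor, lay at 9.71, 9.52 and 8.91 in the fresh libraries and 8.25, 8.26 and 8.40 after culture (-1.08 ± 0.20; adjusted p = 0.00103). Sgk1, a kinase, differed by -0.93, Cxcr4 by -1.23 and Zfp36l2 by -0.67. Il7r, often counted as induced by these hormones, was not lower. It lay at 13.42, 13.02 and 13.13 in the fresh libraries and 13.86, 13.63 and 13.58 after culture and rose by 0.50 ± 0.16 (adjusted p = 0.0306, and up to 0.107 when 1 library was left out). Nr3c1 did not pass, at -0.19.

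The circadian clock genes shifted in both directions. Of 18 tested members 4 were higher and 4 lower (44.4% called, against 29% of all genes). Per1, a negative limb gene that glucocorticoids also induce, lay at 10.31, 10.90 and 11.08 in the fresh libraries and 9.21, 9.31 and 9.54 after culture (-1.41 ± 0.35; adjusted p = 0.00704; -1.93 with the GC slope), and Per2 differed by -1.29. Nfil3 and Ciart, both repressors, differed by -1.42 and -1.34. Dbp, an output factor of the clock, rose by 0.69 and Nr1d1, a repressor of Bmal1, by 0.62. Bmal1's partner gene Clock did not pass, at 0.01. The sources used here do not give the hour of collection, and the part of time of day in these differences was not tested.

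Lysosome and autophagy genes had the largest share of higher members among the 39 lists. Autophagy delivers a cell's own contents to lysosomes for breakdown, and Tfeb and Tfe3 drive many of its genes when nutrients or growth signals are scarce. Of 47 members 23 were higher and 3 lower (55.3% called, against 29% of all genes), with a median of 0.33. Rragd, a GTPase that links amino acid supply to mTOR and is a target of Tfeb, lay at 5.88, 5.50 and 5.54 in the fresh libraries and 7.27, 6.79 and 6.94 after culture (chromosome 4, 32983037 to 33022180, plus strand; 2.57-fold higher; 1.36 ± 0.18; adjusted p = 6.92e-05). Flcn, which acts on that GTPase, rose by 0.92. The membrane protein genes Lamp1 and Lamp2 rose by 0.43 and 0.98, with Lamp2 at 8.18, 7.87 and 7.999 in the fresh libraries and 9.08, 9.04 and 8.88 after culture. Ulk1, the kinase that starts autophagy, rose by 0.96 (0.64 with the GC slope, adjusted p = 4.98e-06). Gabarapl1, which decorates autophagosomes, rose by 0.94.

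Further members filled out the same path. The calcium channel gene Mcoln1 rose by 0.51, the phosphoinositide readers Wipi1 and Wipi2 by 0.53 and 0.49, and the cholesterol exporter gene Npc1 by 0.33. The protease gene Ctsd rose by 0.75, while Gla, another lysosomal hydrolase, was lower at 7.01, 6.66 and 6.77 in the fresh libraries and 5.55, 5.75 and 5.78 after culture (-1.12 ± 0.15). Tfe3 rose by 0.60, and Tfeb, at 0.67, did not pass (adjusted p = 0.206). Sqstm1 and Map1lc3b, at -0.03 and -0.15, did not pass. With the covariate the median was 0.23, and 26 were higher and 5 lower.

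Tfeb and Tfe3 bind the palindrome CACGTG. It stood in 12 of 37 windows of this list (32.4%), against 1027 of 8600 (11.9%), a search added after the values were seen. Among members called higher 6 of 21 held it, among those called lower 1 of 1, and among those not called 5 of 15. Lamp1 and Ctsd are shown as members that rose and hold more than 1 copy, in capitals.
Lamp1 (chr8:13159088-13159163, plus strand): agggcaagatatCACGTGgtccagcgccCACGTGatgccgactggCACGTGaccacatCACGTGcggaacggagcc
Ctsd (chr7:142387908-142388077, minus strand): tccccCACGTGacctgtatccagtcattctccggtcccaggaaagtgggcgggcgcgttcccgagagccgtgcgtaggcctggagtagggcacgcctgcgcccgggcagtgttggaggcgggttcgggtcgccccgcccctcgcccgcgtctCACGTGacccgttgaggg

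Receptors and brakes of growth factor signalling changed in both directions. Igf1r, the receptor for insulin-like growth factor 1, lay at 8.96, 9.03 and 9.05 in the fresh libraries and 10.77, 10.77 and 10.62 after culture (chromosome 7, 67952827 to 68233668, plus strand; 3.26-fold higher; 1.71 ± 0.09; adjusted p = 6.7e-09). The insulin receptor gene Insr rose by 0.42. Igfbp4, a secreted binding protein of the same growth factors and a marker of naive cells, went the other way. It lay at 10.63, 11.17 and 11.31 in the fresh libraries and 8.04, 8.22 and 8.80 after culture (6.42-fold lower; -2.68 ± 0.27; adjusted p = 4.01e-06). Pik3ip1, which inhibits phosphoinositide 3-kinase, rose by 0.91, Klhl24 by 0.83 and the mTOR brakes Tsc1 and Sesn1 by 0.39 and 0.54. Pik3r1, which encodes a regulatory subunit of that kinase, was lower at -0.77. In all, 10 of 34 members of this list were higher and 7 lower (50% called, against 29% of all genes), with a median of 0.12.

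Some genes of oxidative stress defence rose. Of 41 tested Nrf2 and redox genes 11 were higher and 0 lower (26.8% called, against 14.9% higher and 14.1% lower of all genes). The median was 0.28 (0.16 with the GC slope as a covariate, when 17 were higher and 2 lower). Nfe2l2, the gene of the Nrf2 factor itself, lay at 9.43, 9.40 and 9.22 in the fresh libraries and 10.06, 9.999 and 10.04 after culture (0.68 ± 0.09; adjusted p = 3.54e-05), and Bach1, a repressor of its targets, rose by 0.73. Nqo1, a classic target, rose by 0.83 from a low level (2.94, 2.96 and 3.01 in the fresh libraries and 4.004, 3.71 and 3.67 after culture). Thioredoxin (Txn1) rose by 0.72, its reductase gene Txnrd1 by 0.45, glutathione reductase (Gsr) by 0.61 and Gclc, of glutathione synthesis, by 0.47. Ftl1, the ferritin light chain gene, rose by 1.12 (0.50 with the GC slope and 0.25 in Creld1 cKO cells, not called there; the call was kept in 0 of the 6 fits that left out 1 library), and it has processed copies, so its value is uncertain. Hmox1 lay below the minimum, at means of 3.01 fresh and 2.86 cultured.

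The zinc importer gene Slc39a4 showed the largest rise among the genes taken by the naming rule. It lay at 4.96, 4.77 and 5.05 in the fresh libraries and 6.72, 6.99 and 7.27 after culture (chromosome 15, 76612383 to 76617384, minus strand; 4.19-fold higher; 2.07 ± 0.24; adjusted p = 1.6e-05), with 1.37 in Creld1 cKO cells (adjusted p = 0.000674). Among 18 metallothionein and zinc transporter genes 4 were higher (22.2%, against 14.9% of all genes) and 0 lower, the others being Slc39a1 (0.50), Slc39a6 (0.44) and Slc30a6 (0.33). With 1 library left out the calls of Slc39a4 and Slc39a1 were kept in 6 and 6 of 6 fits, and those of Slc39a6 and Slc30a6 in 3 and 3.

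The remaining large rises came from genes of varied roles. Ank, which exports pyrophosphate and ATP, lay at 8.17, 8.14 and 8.24 in the fresh libraries and 10.02, 9.85 and 9.84 after culture (3.29-fold higher; 1.72 ± 0.08; adjusted p = 3.99e-09). Tnfrsf26, a TNF receptor superfamily gene of the mouse, lay at 9.57, 9.47 and 9.36 in the fresh libraries and 11.08, 10.997 and 10.97 after culture (1.55 ± 0.11; adjusted p = 6.02e-08). Kif3a, a motor of transport along cilia and microtubules, lay at 6.25, 6.31 and 6.46 in the fresh libraries and 8.15, 7.99 and 8.03 after culture (1.71 ± 0.12), and Kif22, a chromosome-arm motor, rose by 1.64. In Ank, Tnfrsf26 and Kif3a the cultured libraries all lay more than 1 log2 unit above the highest fresh one. Fam221a rose by 1.72, the mitochondrial carrier gene Slc25a35 by 1.54, the collagen receptor kinase gene Ddr1 by 1.72, Wfikkn2 by 1.64 and Pgpep1l by 1.50.

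A further 3 of the 15 largest rises shrank most with the GC slope as a covariate. Btbd2 lay at 5.83, 6.80 and 6.62 in the fresh libraries and 7.66, 7.99 and 8.43 after culture (1.61 ± 0.47; adjusted p = 0.0185), Tbxa2r, the thromboxane receptor gene, at 5.45, 6.24 and 6.17 in the fresh libraries and 7.01, 7.60 and 7.90 after culture (1.55 ± 0.41), and Abtb1 at 7.67, 8.43 and 8.02 in the fresh libraries and 9.31, 9.70 and 9.64 after culture (1.51 ± 0.34). With the slope as a covariate they were 0.89, 0.93 and 1.01, all still called. Without control fresh replicate 1 the adjusted p was 0.0875 for Btbd2 and 0.0554 for Tbxa2r. The GC slopes of the Creld1 cKO libraries ran from -0.31 to 0.16 in fresh cells (mean -0.12). After culture they ran from -0.19 to -0.07 (mean -0.13). In these cKO cells the differences of the 3 genes were -0.10, 0.20 and 0.39, none of them called, and the cause was not tested. The test of the difference between genotypes did not pass for any of the 3 (adjusted p = 0.843, 0.843 and 0.843). Over the 167 genes at least 2-fold higher the median transcript GC content was 55.9%, against 50.1% for the 129 at least 2-fold lower and 49.2% for all tested genes. Of the 167, 83 stayed at least 2-fold higher with the covariate, and of the 129, 115 stayed at least 2-fold lower.

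**Figure D2:**
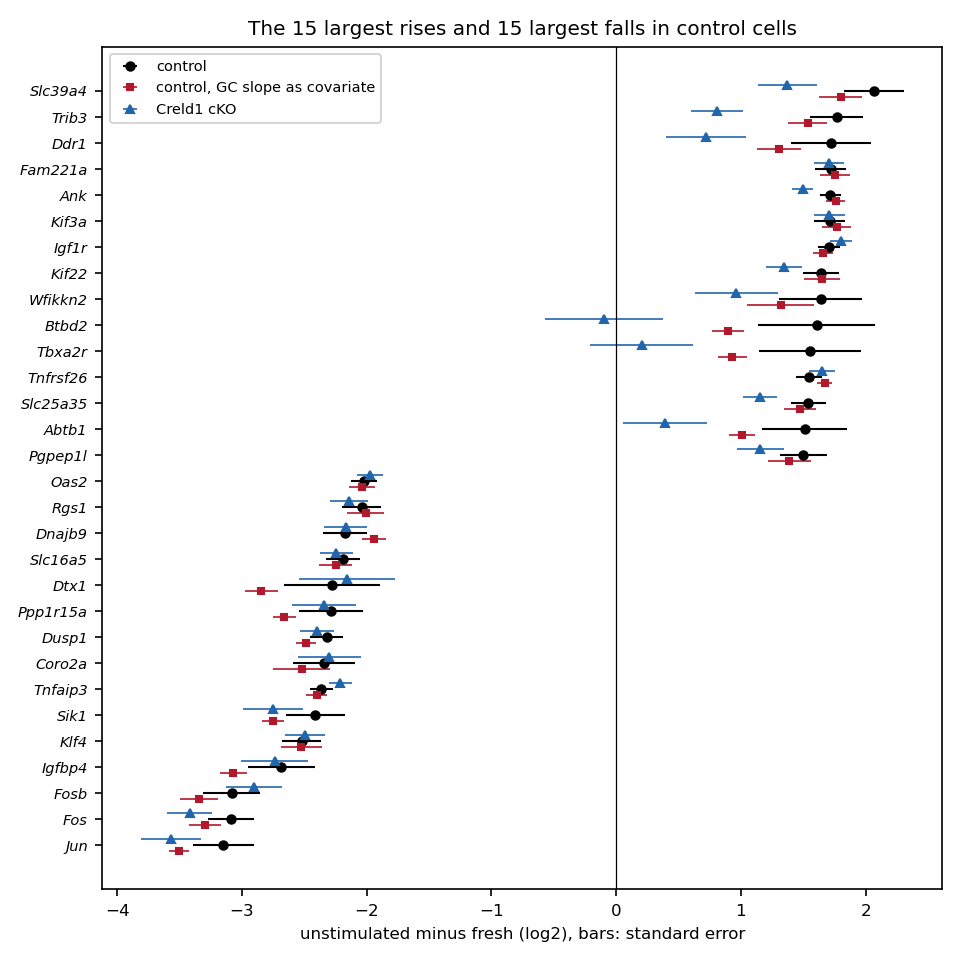
Difference between cultured and fresh libraries (log2, bars SE) for the 15 largest rises and 15 largest falls in control cells, in black as deposited, in red after adding the GC slope to the fit as a covariate, and in blue for Creld1 cKO cells. The falls stay at least 2-fold in all 3 sets and vary most for Dtx1 (-2.28, -2.84 and -2.16). Btbd2, Tbxa2r and Abtb1 move furthest toward 0 with the covariate and in Creld1 cKO cells.

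Among the largest falls 3 were of genes outside the lists. Coro2a, a coronin that binds actin, lay at 7.19, 7.14 and 7.64 in the fresh libraries and 4.69, 5.08 and 5.18 after culture (5.07-fold lower; -2.34 ± 0.25; adjusted p = 7.85e-06). Dtx1, a ubiquitin ligase induced by Notch, lay at 7.90, 9.01 and 8.72 in the fresh libraries and 6.004, 6.28 and 6.53 after culture (-2.28 ± 0.39; adjusted p = 0.000479), and Slc16a5, of the monocarboxylate transporter family, at 7.55, 7.73 and 7.73 in the fresh libraries and 5.33, 5.49 and 5.63 after culture (-2.19 ± 0.13; adjusted p = 2.17e-08). Separate groups were a condition for naming these 3 genes, and the covariate gave -2.52, -2.84 and -2.25.

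Genes of the naive state shifted in both directions. Of 30 naive state and quiescence genes 9 were higher and 5 lower (46.7% called, against 29% of all genes), with a median of 0.12. Among those higher were the transcription factor genes Lef1 (0.42) and Tcf7 (0.34; adjusted p = 0.11 without control fresh replicate 1), and the Schlafen genes Slfn1 (0.45) and Slfn2 (0.63), of which Slfn2 is needed for quiescence. Beside Igfbp4 and Tsc22d3 the lower members included Btg1 at 13.67, 13.70 and 13.79 in the fresh libraries and 12.86, 12.90 and 12.92 after culture (-0.83 ± 0.08), which directs messenger RNA decay in resting T cells, and Foxo1 at 11.57, 11.38 and 11.39 in the fresh libraries and 10.72, 10.67 and 10.66 after culture (-0.76 ± 0.09), the factor that drives Klf2 and Il7r. The letters GTAAACA of the Foxo site were in 4 of 25 windows of the list (16%), against 3.26% of all windows.

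Homing, egress and adhesion genes were lower more often than higher, 12 against 7 of 35 (54.3% called, against 29% of all genes). The median was -0.10, and without control fresh replicate 1 the counts were 9 lower and 4 higher. Cxcr4, the receptor for the stromal chemokine Cxcl12, lay at 10.44, 10.58 and 10.56 in the fresh libraries and 9.31, 9.31 and 9.25 after culture (-1.23 ± 0.13; adjusted p = 5.37e-06), and Gpr183, which guides cells by oxysterols, differed by -0.72. The integrin gene Itgb2, a chain of LFA-1, differed by -0.85, whereas Itga6 rose by 0.79. S1pr4 rose by 1.48 as deposited and 0.85 with the GC slope, and did not pass in Creld1 cKO cells (0.33) or without control fresh replicate 1 (1.25, adjusted p = 0.0652).

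Genes of the common gamma chain cytokine receptors and their signalling were more often lower than higher. Of 27 tested members 10 were lower and 3 higher (48.1% called, against 29% of all genes), with a median of -0.23. Without control fresh replicate 1 the counts were 10 and 1. The chain itself, Il2rg, differed by -0.39, Il2rb by -0.89 and Il15ra by -1.08. Bcl2 is the survival gene that interleukin 7 sustains. It lay at 10.64, 10.40 and 10.55 in the fresh libraries and 9.63, 9.72 and 9.62 after culture (-0.88 ± 0.08, limma adjusted p = 2.23e-06). Ptpn2, a phosphatase that acts on the Jak kinases of these receptors, differed by -0.51.

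Survival and death genes moved in both directions. In the Bcl2 family and cell death list 11 of 38 were lower and 6 higher (44.7% called, against 29% of all genes). Of all genes 14.1% were lower and 14.9% higher. Without control fresh replicate 1 the counts of the list were 8 and 3. Mcl1, like Bcl2 a guard of mitochondria, was lower at -0.48, and so was Pmaip1, a pro-death BH3 gene also called Noxa, at -0.85. The death protease gene Casp9 rose by 0.74 and the adaptor gene Fadd by 0.58, while Birc2, a ligase that restrains death signalling, was lower at -0.65. Bcl2l11 and Bbc3, the BH3 genes tied to cytokine loss, did not pass, at 0.12 and 0.84. Among 32 genes of p53 and its targets 8 were higher and 6 lower (43.8% called). Cdkn1a, the cell cycle inhibitor p21, lay at 4.23, 4.52 and 4.69 in the fresh libraries and 5.31, 5.51 and 5.63 after culture (1.004 ± 0.16; adjusted p = 0.000291), Ccng2 rose by 0.63, and Plk2 was lower at -1.61.

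Genes of entry into the cell cycle were called about as often as all genes. Of 36 tested 8 were lower and 4 higher (33.3% against 29%), with a median of -0.05. The D-type cyclin gene of resting lymphocytes, Ccnd2, lay at 11.37, 11.40 and 11.21 in the fresh libraries and 10.48, 10.52 and 10.42 after culture (-0.86 ± 0.10; adjusted p = 2.67e-05), Cdk6 differed by -0.78, Pcna by -0.86 and Ccne2 by -0.96. The brake gene Rb1 rose by 0.52.

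Signalling parts of the T cell receptor were lower in 13 and higher in 5 of 43 genes (41.9% called, against 29% of all genes). The median was -0.15. Without control fresh replicate 1 they were lower in 10 and higher in 3. With the GC slope as a covariate they were lower in 23 and higher in 8. Themis, a T cell lineage signalling adaptor, lay at 10.93, 10.58 and 10.58 in the fresh libraries and 10.22, 9.94 and 9.58 after culture (-0.78 ± 0.17), Lcp2 differed by -0.50, Prkcq by -0.45 and Grb2 by -0.38. Tec, a kinase of the same path, rose by 0.79. Lck and Zap70, the first kinases of the path, did not pass as deposited, at -0.23 and 0.27 (-0.59 and -0.28 with the GC slope).

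In the list of T helper and activation genes 8 of 25 were lower and 4 higher (48% called, against 29% of all genes). Beside Cd69, Ctla4 and Cd44 the lower ones included Runx1 (-0.58) and Eomes (-0.74). Prdm1 rose by 0.55. Among 13 regulatory T cell markers 3 were higher and 3 lower (46.2% called, against 29% of all genes). Ikzf4 lay at 6.83, 6.84 and 7.29 in the fresh libraries and 8.27, 8.49 and 8.42 after culture (1.404 ± 0.15). Foxp3 itself did not pass (-0.18). Of 15 memory and effector markers that reached the minimum 2 were higher and 3 lower (33.3% called), S100a10 at 0.64 among the former.

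Among 21 TNF receptor and ligand genes 3 were higher and 7 lower (47.6% called, against 29% of all genes). Tnfrsf4, the co-stimulatory receptor OX40, rose by 0.97, and the ligand genes Tnfsf8, Tnfsf10 and Tnfsf11 differed by -0.43, -0.51 and -0.80. In the TGF-beta pathway 4 of 19 were higher and 5 lower (47.4% called). Its decoy receptor gene Bambi lay at 6.31, 6.33 and 6.35 in the fresh libraries and 4.54, 4.05 and 4.36 after culture (-2.01 ± 0.14) and Smurf2 differed by -0.94, while Smad3 rose by 0.42.

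In the metabolic lists the calls went in both directions. Called shares were 27% for the synthesis, 21.9% for the glycolysis and 24.2% for the hypoxia list, against 29% of all genes. Of 37 genes of cholesterol and fatty acid synthesis 4 were higher and 6 lower, shares near those of all genes. The key enzymes of the sterol path did not move together, since Hmgcs1 rose by 0.38, while Hsd17b7 was lower at -0.67 and the feedback gene Insig1 at -0.63. Scd2, a desaturase, differed by -0.89. Of 32 glycolysis and pentose phosphate genes 2 were higher and 5 lower (1 and 3 without control fresh replicate 1; the covariate gave 4 and 12), with Gapdh at -0.61, the glucose carrier gene Slc2a3 at -0.42 and the activator gene Pfkfb3 at -0.47. The hypoxia list had 4 higher and 4 lower of 33. Ndrg1 lay at 7.50, 7.70 and 7.81 in the fresh libraries and 8.71, 9.08 and 9.03 after culture (1.27 ± 0.12), whereas Hif1a did not pass (-0.28).

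Of 15 amino acid transport genes 3 were higher and 4 lower (46.7% called, against 29% of all genes), and without control fresh replicate 1 1 and 3. Slc38a10 rose by 0.88, a call kept in 2 of 6 fits that left out 1 library (adjusted p up to 0.134). Among 12 genes of cholesterol efflux and LXR targets 1 was higher and 2 lower (25% called). Without control fresh replicate 1 the counts were 0 and 2. Arl4c differed by -0.83, and Abca1, at -0.70, did not pass. Regulators of mRNA decay were lower in 6 and higher in 2 of 29 (27.6% called). Pnrc1, a decapping cofactor, lay at 11.58, 11.45 and 11.65 in the fresh libraries and 10.34, 10.29 and 10.36 after culture (-1.23 ± 0.07), and Zc3h12d, a Regnase family gene, rose by 0.69.

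**Figure D3:**
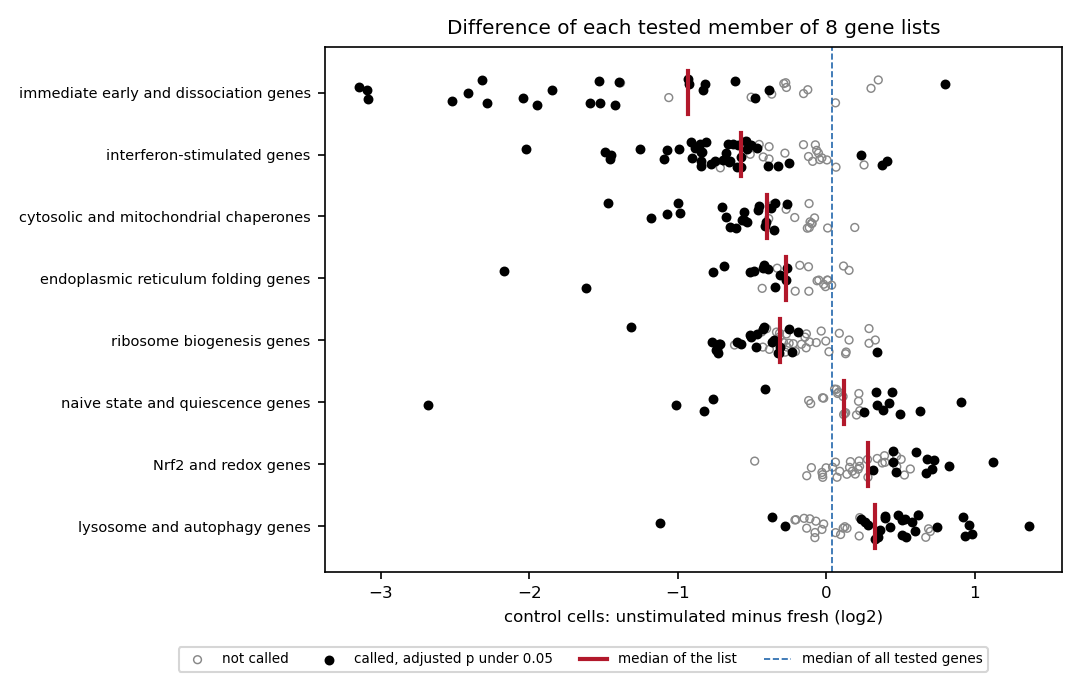
Difference between cultured and fresh control libraries (log2) for every tested member of 8 lists, filled where called, with the median of each list in red and that of all tested genes as a dashed line. Members of the 5 upper lists lie mostly to the left of the dashed line, and those of the Nrf2 and lysosome lists mostly to the right.

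**Figure D4:**
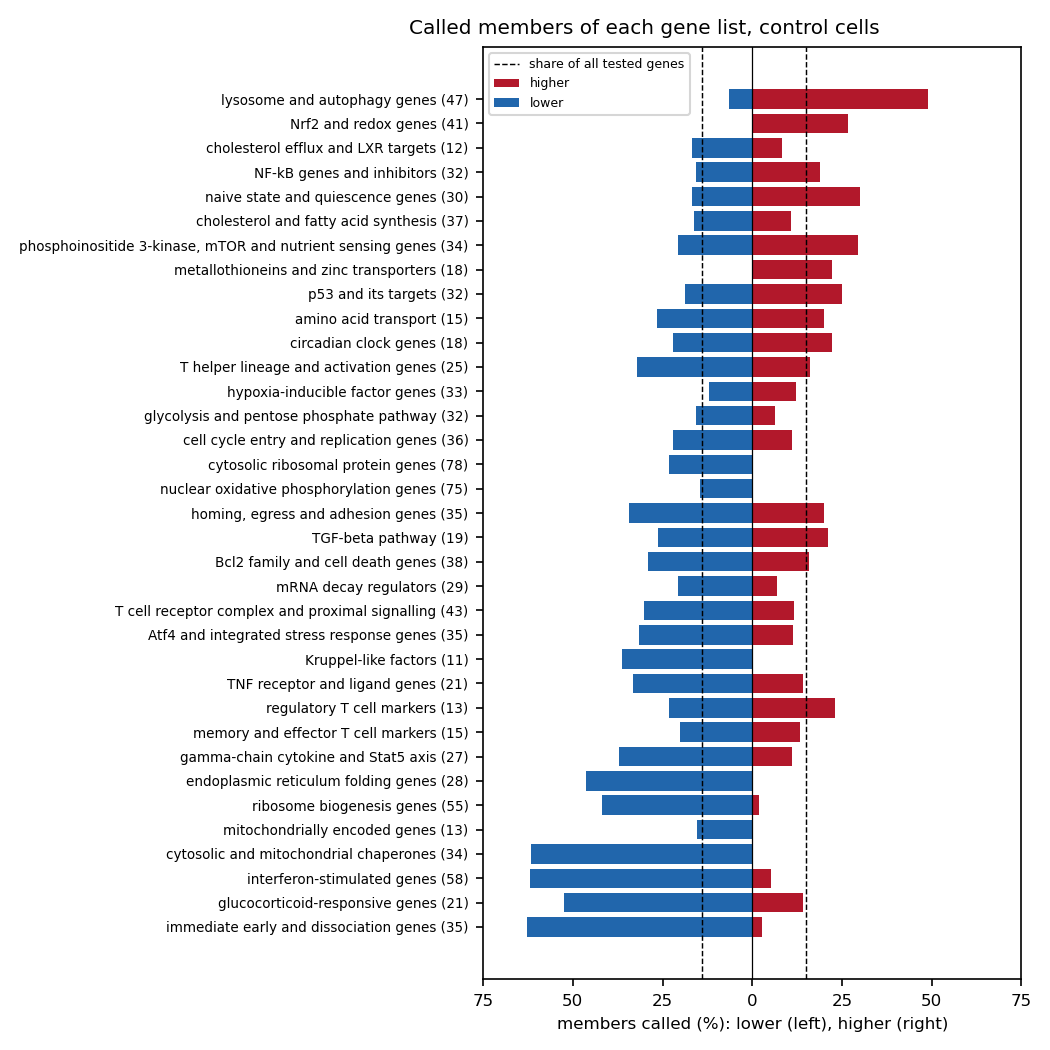
Share of tested members called lower (left, blue) and higher (right, red) in each list with at least 10 tested members, ordered by the median difference, with the number tested in parentheses. Dashed lines mark the shares of all tested genes, 14.1% lower and 14.9% higher.

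Of the tested markers of other cell types 3 of 5 B cell, 3 of 5 CD8 T and natural killer and 3 of 6 myeloid genes were called, in both directions. These shares are 60%, 60% and 50%, against 29% of all genes. The summed level of the B cell list ran from 7.43 to 7.90 in the fresh and from 7.50 to 7.78 in the cultured libraries (log2 of the linear sum of 18 genes). For the 18 CD8 T and natural killer genes the ranges were 8.78 to 8.88 and 8.85 to 8.94, and for the 16 myeloid and dendritic genes 10.34 to 10.44 and 10.39 to 10.58. These 3 pairs of ranges overlap. The 5 red cell and platelet genes did not, at 7.76 to 7.82 and 7.93 to 7.97, although 0 of the 2 tested were called and the hemoglobin gene Hbb-bs had a mean of 0.68 in fresh cells. Among the called markers were Klrd1 and Cd79a, higher (0.87 and 0.82), and Prf1 and Itgam, lower (-0.90 and -0.92). The part of such cells in the results was not tested.

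The same culture of Creld1 cKO cells gave a comparison that shares no library with that of the control cells. There 2408 of 10877 genes (22.1%) were called, 1164 higher and 1244 lower (4935 with the GC slope in the fit). Of the 1619 genes higher in control cells 1556 had a positive difference in cKO cells and 842 were called higher there, which is 52% of the control calls and 72.3% of the cKO calls. Of the 1532 lower in control cells 1513 were negative and 956 called lower, 62.4% and 76.8%. Of the large changes 125 of the 129 genes at least 2-fold lower were called lower in cKO cells, and 92 of the 167 at least 2-fold higher were called higher there. A test of the difference itself, cKO minus control, called 0 of 10877 genes (0%). At an unadjusted p under 0.05 there were 545 genes (5.01%), and the smallest adjusted p was 0.299. The count was 0 in every other setting tried except library weights, which gave 85.

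**Figure D5:**
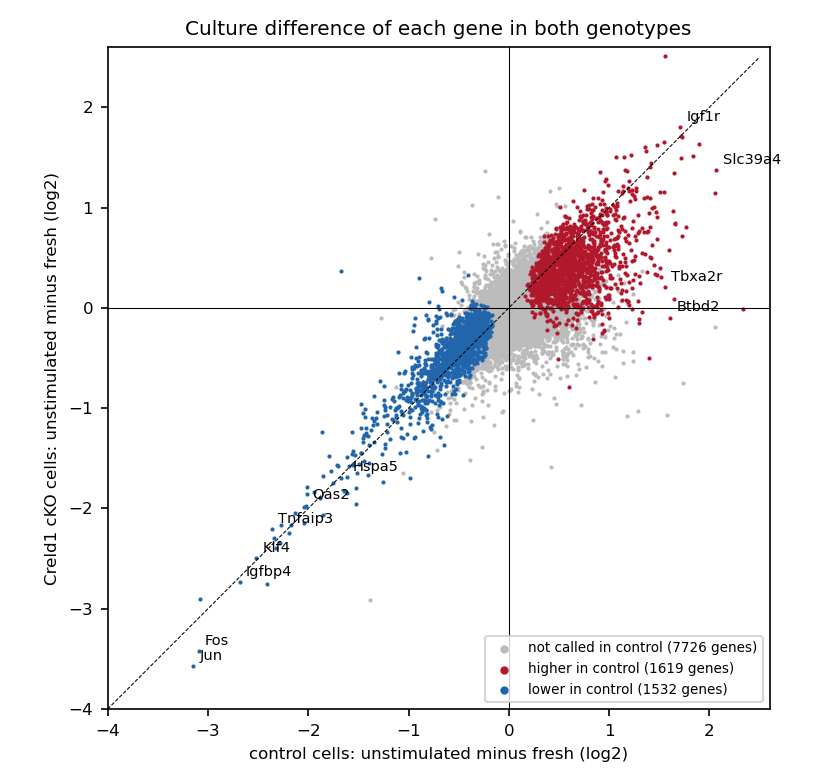
Culture difference (cultured minus fresh, log2) of each of 10877 genes in control cells on the horizontal and in Creld1 cKO cells on the vertical axis, colored by the call in control cells, with the line of equality dashed. The large falls lie along the line, while the rises of Btbd2 and Tbxa2r lie near 0 on the vertical axis.

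Per list the pattern in cKO cells was alike in direction for the groups that fell. There 29 of 35 immediate early genes, 37 of 58 interferon-stimulated genes, 21 of 34 chaperone genes, 11 of 28 endoplasmic reticulum genes and 25 of 55 ribosome biogenesis genes were lower. Over all 10877 tested genes 1244 were lower and 1164 higher in cKO cells. The lysosome list had 14 of 47 higher (median 0.19) and the Nrf2 list 13 of 41 higher (median 0.11). Jun and Fos in cKO cells lay at 10.20, 10.004 and 11.13 fresh and 6.68, 7.05 and 6.89 after culture and at 11.11, 11.02 and 11.36 fresh and 7.59, 7.74 and 7.91 after culture. Igf1r there lay at 8.88, 8.90 and 8.98 fresh and 10.66, 10.73 and 10.78 after culture, a rise of 1.803 against 1.71 in control cells.

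The cultured control cells were also set beside control cells cultured for the same 8 h with the antibodies. These groups share the culture and differ by the stimulus, and 38 genes (0.349%) were called, 34 higher and 4 lower with the antibodies (1233 had an unadjusted p under 0.05). That count rested on the setting, with 4 called in a fit of the 9 control libraries, 9 to 15 with 1 of the cultured libraries left out and 2695 with library weights. The immediate early genes that had fallen were low in both cultures. Jun lay at 6.81, 7.30 and 6.97, Fos at 7.84, 8.44 and 7.99 and Dusp1 at 8.11, 8.39 and 8.19 with the antibodies, differences of -0.22, 0.09 and -0.01 that did not pass. Egr1 was an exception. It differed by -0.82 between unstimulated culture and fresh cells, and was higher with the antibodies than without by 1.25 (adjusted p = 0.00803). Igf1r, Ank and Tnfrsf26 lay at means of 10.75, 9.88 and 11.09 with the antibodies, against 10.72, 9.90 and 11.02 without. Trib3 was among the 4 genes lower with the antibodies, at a difference of -1.12 (adjusted p = 0.0316), and Irf4, a factor induced by receptor signals, among those higher, by 1.10 (adjusted p = 0.0395).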

How the data were processed

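RNA from sorted mouse CD4+ T cells was made into TruSeq libraries, which keep no strand, and read as 75-base single ends, per the labels' protocols. The authors deposited 1 table of normalized values on a log2 scale, handled here as a score because the sources used here do not name the normalization. The submitters' processing notes name CASAVA 1.8, HISAT2 2.1.0, SAMtools 1.4, Partek 6.6, DESeq2 and build mm10, without their roles. No count was available, so no count model was run, and reads from overlapping or antisense genes cannot be told apart.

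All 18 libraries (6 groups of 3) were fitted as group means in limma 3.58.1 (R 4.3.3), with a trended prior variance (12 residual and 15.7 total degrees of freedom). For the GC slope of a library, each gene's mean over all 18 libraries was first taken from its log2 value. The slope is that of these deviations on the GC content of each gene's longest transcript (GENCODE M21, available for 10803 of the 10877 tested genes). It comes from the same values as the differences, so as a covariate it can take up part of them. Gene coordinates are GRCm38. Single values of a library were compared by an exact permutation test, whose smallest p for 3 against 3 is 0.10. The fit was tested on simulated data. In all, 28 settings were tried: filters, pseudocounts, scalings, libraries in the fit, weights, GC corrections, a block for runs of library numbers, and leaving out libraries.

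Named genes are Creld1, the 15 largest rises and falls with separate groups and a mean of at least log2 of 100 (clone names left out), and list members that passed the test or define the list. Genes and lists were chosen with earlier results of these data known.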

Additional observations from a re-analysis of the deposited data

How the results depend on the processing

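The depth of the libraries is unknown, so the counting error of low values could not be estimated, and p-values at 3 libraries per group rest on the variance shared by limma across genes. Of the 222 called genes named here 198 kept the call and direction under every setting in which they were tested, and 24 lost the call under at least 1. In 1 fit the difference of Klf2, not called as deposited, was -0.32 (spline on GC removed), and that of Zap70, likewise not called, was -0.28 with the GC slope and -0.31 with the slope and the block for runs of library numbers. The labels tie no run to a batch or animal, the labels give no replicate numbers (those used here follow accession order and pair no libraries), and the block alone gave 1686 genes higher and 1586 lower. Of 858 refitted list medians 140 moved by more than the spread between libraries.

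The counts of called genes moved by more than 1.5 times as follows, and the cause was not tested. With library weights they were 2949 higher and 2519 lower in control cells, 5265 in Creld1 cKO cells, 85 for the difference between genotypes and 2695 for stimulation. With the GC slope they were 103 at least 2-fold higher (102 with the block added), 4935 in Creld1 cKO cells (4874) and 321 for stimulation (209). With the GC spline removed they were 3753 in Creld1 cKO cells and 81 for stimulation. Stimulation gave 60 after quantile normalization, 25 with the block and 4 in the fit of only the 9 control libraries. Leaving out 1 library in turn gave 1010 to 1311 lower (lowest without control fresh replicate 1) and 9 to 15 for stimulation, while the count higher, at 1093 to 1400, stayed within 1.5 times. For the difference between genotypes the count was 0 in every other setting run.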

Other observations

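Other large changes in cultured control cells lay outside the lists, and the genes here were chosen after their values were seen. More brakes of MAP kinase signalling were lower, with Dusp6 at -1.88 ± 0.11 (limma adjusted p = 1.76e-08) and Dusp10 at -1.56 ± 0.14. Maff, a small leucine zipper factor, differed by -1.86, while its relative Mafg rose by 1.403 (1.18 with the GC slope as a covariate). Trp53inp2, which takes part in autophagy, was lower at 7.53, 7.31 and 7.58 in the fresh libraries and 5.26, 5.72 and 5.41 after culture (-2.01 ± 0.18), against the direction of most called lysosome and autophagy genes. Tespa1, a T cell receptor signalling gene, differed by -1.79, the ATP-gated channel gene P2rx7 by -2.04, the ubiquitin ligase gene Siah2 by -1.65, Trib1 by -1.68 and the cytokine gene Flt3l by -1.51. In Creld1 cKO cells these last 5 differed by -1.48, -1.99, -1.83, -1.70 and -1.65.

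Among rises, Tnfrsf23, which lies beside Tnfrsf26 on chromosome 7, lay at 5.64, 5.37 and 5.82 in the fresh libraries and 6.96, 6.84 and 7.11 after culture (1.36 ± 0.15; adjusted p = 7.8e-06). Lfng, which modifies Notch, rose by 1.45 (0.90 with the covariate), in the same libraries in which the Notch target Dtx1 was lower. The thyroid hormone receptor gene Thra rose by 1.30, the phosphodiesterase gene Pde2a by 1.22 and the DNA repair gene Brca1 by 1.29, while Clspn, of the replication checkpoint, was lower at -2.13.

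Only 2 genes were called in opposite directions in the genotypes. Atg4c, an autophagy protease gene, differed by 0.60 in control and -0.79 in Creld1 cKO cells, and Selenoh by 0.49 and -0.51. The test of the difference did not pass for either (adjusted p = 0.299 and 0.843). With 1 library left out the calls in control cells were kept in 4 and 2 of 6 fits.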
